A study of Mus musculus with 6 samples.

Results

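Hearts with myocardial infarction (MI) were profiled by RNA sequencing, and the 6 genes described here are those of the red blood cell: the adult alpha globin genes Hba-a1 and Hba-a2, the adult beta globin genes Hbb-bs and Hbb-bt, Alas2 and Slc4a1. They were selected by symbol and Ensembl identifier, without use of their values, and are 6 of the 38293 genes in the table. Total RNA depleted of ribosomal RNA came from heart tissue of 3 WT and 3 Zeb2 cKO mice of C57BL/6J background, 14 days after permanent occlusion of the left anterior descending coronary artery. The animals labelled WT carry the floxed allele without Cre (Zeb2 fl/fl) according to the methods. In the Zeb2 cKO animals, Cre under the αMHC promoter removes Zeb2, a zinc finger transcription factor, from cardiomyocytes, so that red cells and all other cell types of the sample keep the gene. The labels place the tissue at the border of the infarct, whereas the methods name the remote zone. Whether blood was flushed from the hearts before RNA isolation is not given in the sources used here.

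Haemoglobin is built from a pair of alpha chains and a pair of beta chains, each holding a haem group. Red cells lose their nucleus before they circulate, and young circulating cells, the reticulocytes, still contain mRNA for globins and a few other proteins. Alas2 encodes the erythroid form of 5-aminolevulinate synthase, which starts haem synthesis, and Slc4a1 encodes band 3, the anion exchanger of the red cell membrane. In a piece of heart these transcripts are taken as a measure of the blood within it, and in bulk RNA fewer red cells and less RNA per red cell cannot be told apart.

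The paired globin genes are near-identical copies, and their sequences show how little of each could be told from the other by a read of 75 bases. On GRCm38, Hba-a1 (ENSMUSG00000069919) lies on the plus strand of chromosome 11 from 32283511 to 32284465, and Hba-a2 (ENSMUSG00000069917) lies on the same strand from 32296489 to 32297298. Hbb-bs (ENSMUSG00000052305) and Hbb-bt (ENSMUSG00000073940) lie on the minus strand of chromosome 7, from 103826534 to 103828096 and from 103812524 to 103813996. The coding sequences of Hba-a1 and Hba-a2 were identical at all but 1 of 429 bases, and those of Hbb-bs and Hbb-bt at all but 1 of 444 bases. Counted from the first base of the start codon and with Hba-a1 or Hbb-bs first, the differences are C381T and C417T, and both are synonymous changes at base 3 of a codon. The stretches of coding exon around these bases, from the Gencode M21 transcripts, are shown with the differing base in capitals (Hba-a1 at chr11:32284323-32284363, Hba-a2 at chr11:32297140-32297180, Hbb-bs at chr7:103826672-103826712, Hbb-bt at chr7:103812663-103812703, each on the strand of its gene):
Hba-a1: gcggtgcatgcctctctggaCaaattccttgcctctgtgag
Hba-a2: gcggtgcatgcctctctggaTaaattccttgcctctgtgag
Hbb-bs: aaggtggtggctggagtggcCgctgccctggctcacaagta
Hbb-bt: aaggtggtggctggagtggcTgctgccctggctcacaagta

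Sequence that belongs to 1 copy alone was therefore scarce. Of all windows of 75 bases along the transcript, 15.4% of those of Hba-a1 and 19.0% of those of Hba-a2 occurred in no other annotated gene. The shares were 35.7% for Hbb-bs and 43.4% for Hbb-bt. How the authors' counting treated reads that match both copies is not given in the sources used here, so the split of counts within a pair is uncertain, while the sum of a pair is unaffected by a division of such reads between the copies but not by their removal. Alas2 (ENSMUSG00000025270, plus strand of chromosome X, 150547375 to 150570638) had 87.9% of its windows to itself. The remainder were shared with Apex2, a gene on the opposite strand whose annotated exons cover 311 of the 2403 exon bases of Alas2. The libraries are strand-specific, but the strand setting of the counting is not given in the sources used here. Apex2 itself had 221 to 315 counts per library. Slc4a1 (ENSMUSG00000006574, minus strand of chromosome 11, 102348824 to 102366203) shared none of its 4471 windows.

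The sequence before the start of each gene was read from RefSeq's promoter table (GRCm38.p6), which matched 5 of the 6 genes and did not list Slc4a1. All 5 windows of 250 bases held GATAA or its reverse complement TTATC, the core letters bound by GATA factors, which were found on either strand in 22.6% of the 32851 promoters of the table. The stretches are shown with the core in capitals, because red cell genes are classical targets of Gata1. The starts in RefSeq's promoter table differ from the Gencode starts given above. The capitals begin 182 (Hba-a1), 185 (Hba-a2), 209 (Hbb-bs), 204 (Hbb-bt) and 86 bases (Alas2) before RefSeq's start, at chr11:32283479-32283505, chr11:32296296-32296322, chr7:103828122-103828148, chr7:103814112-103814138 and chrX:150547320-150547346, each on the strand of its gene:
Hba-a1: tccgggcaactGATAAggattccctgc
Hba-a2: tccgggcaactGATAAggattccctgc
Hbb-bs: ttctctgcacaGATAAggacaaacatt
Hbb-bt: ttagctgcaagGATAAgaacagacact
Alas2: tactttgctttTTATCtttagcagagg
CACCC, the core of the Klf1 site, was also present on either strand in all 5 windows and in 52.0% of all promoters. CCAAT was found before the 4 globin genes and not before Alas2, against 33.8% of all promoters. TATAA was found before all 5 genes (22.8% of all promoters) and ATAAAA, which can overlap it, before Alas2 alone (17.0%). The listed sequences of Hba-a1 and Hba-a2 were identical over 297 bases once shifted by 3 bases, a stretch that reaches beyond the windows of 250 bases.

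The deposited counts summed to 37.3 to 51.1 M per library (37288174 to 51136331), of which 60.5% to 67.0% belonged to the mitochondrially encoded genes and 14.3 to 19.0 M (14301225 to 19024394) to all others. Libraries were normalized with TMM in edgeR and are given as CPM, which relate the counts of a gene to the normalized library size with the mitochondrially encoded genes included. In edgeR's test across all genes 0 of 14746 passed an adjusted p of 0.05 and 280 had an unadjusted p under 0.05, and DESeq2 called 1 gene. Zeb2 itself was at 59.6 to 116.05 CPM with overlapping groups. Its highest value was in WT replicate 2, and its log2 fold change of -0.33 became -0.0058 without that library. WT replicate 2 stood apart from the other libraries in its cell type markers: the summed level of 10 cardiomyocyte markers was 34669 CPM there against 55680 to 67969 CPM in the others, that of 10 macrophage markers was 881 CPM against 221 to 312 CPM, and that of 8 fibroblast markers was 9621 CPM against 1680 to 2327 CPM. The 4 adult globin genes did not set this library apart, as their sum in WT replicate 2 (230.3 CPM) was close to that in WT replicate 3 (232.8 CPM).

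Globin RNA was present in all 6 libraries at a low share of counts that varied among mice more than between genotypes. If reads matching both copies of a pair were removed in the counting, this share understates the globin RNA. The same holds for the comparison with Mb below. The 4 adult globin genes took 5204, 10107 and 8940 counts in the WT libraries and 9733, 5550 and 9713 counts in the Zeb2 cKO libraries, in the order of the replicates. As a share of counts outside the mitochondrially encoded genes this was 0.0363%, 0.0687% and 0.0625% in WT and 0.0524%, 0.0355% and 0.0511% in Zeb2 cKO. The lowest values, in WT replicate 1 and Zeb2 cKO replicate 2, thus fell 1 in each group, and the highest share exceeded the lowest 1.94-fold. The group means were 0.0558% ± 0.0172 (SD, n = 3) for WT and 0.0463% ± 0.00942 (SD, n = 3) for Zeb2 cKO, and the groups overlapped. The exact 95% binomial interval, which covers counting error only, was 0.0353% to 0.0373% for WT replicate 1 and 0.0674% to 0.0701% for WT replicate 2. The source of the spread among mice was not tested. For comparison, Mb, the oxygen-binding globin of muscle and no red cell gene, made up 0.556% to 0.736% of the same counts, between 8.09 and 20.4 times the counts of the 4 adult globin genes.

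**Figure D1:**
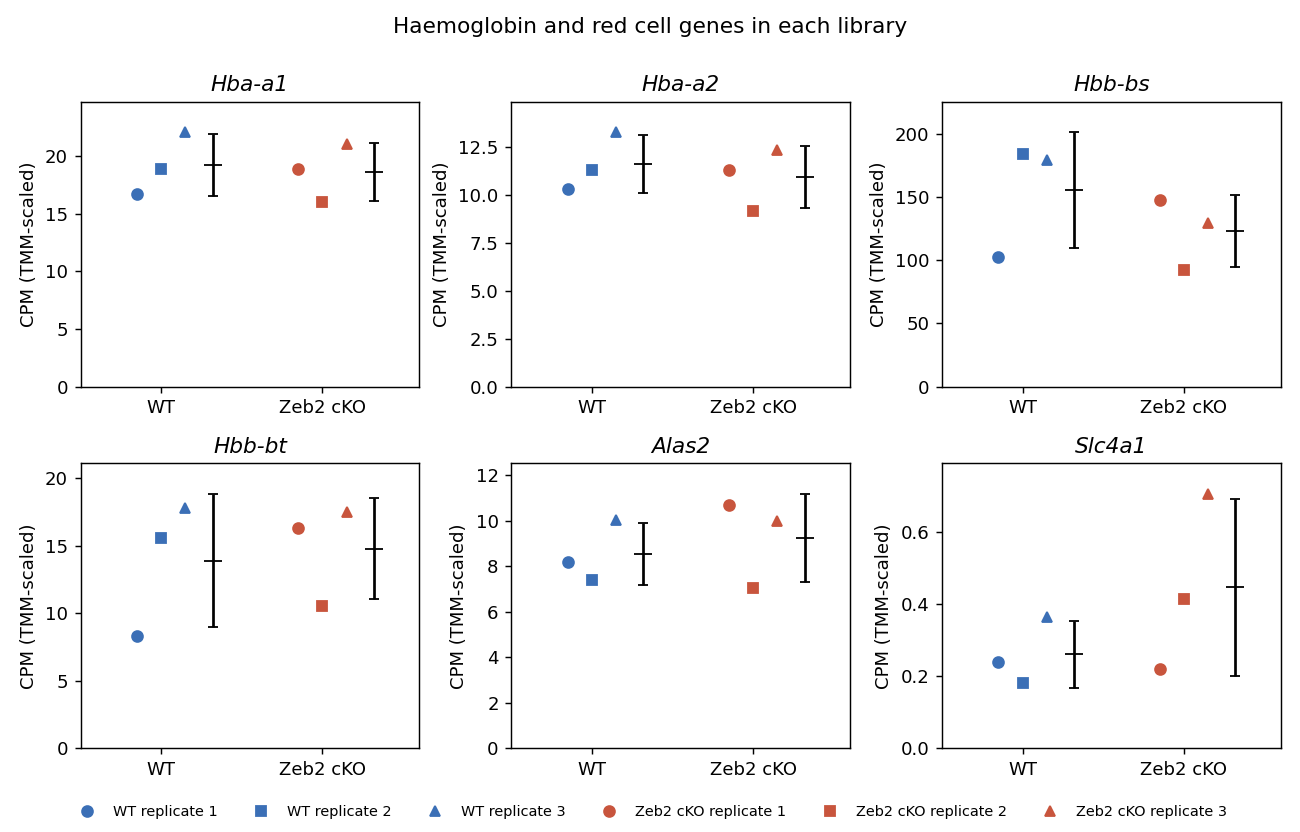
TMM-scaled CPM (linear axes from 0) of the 6 genes in each of the 3 WT and 3 Zeb2 cKO libraries. Each symbol is 1 mouse, and the bar at the right of each group gives the mean ± SD. The groups overlap in every panel, and WT replicate 1 and Zeb2 cKO replicate 2 have the lowest Hbb-bs, at 103 and 92.3 CPM.

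Between the genotypes, the groups of all 6 genes overlapped and none of the 6 passed the test, beside the 6.36% of all 14746 tested genes whose groups did not overlap (2.97% lower and 3.39% higher in Zeb2 cKO) and the 0.0% that passed it at an adjusted p of 0.05. None of the 6 had an unadjusted p under 0.05 either, beside 1.9% of all genes tested. The log2 fold changes of Zeb2 cKO over WT were between -0.34 and 0.78, 3 of them below 0 and 3 above. Their median was 0.021 against -0.0069 over all genes tested. Without WT replicate 2 these medians were -0.015 and 0.0025. Every adjusted p was at least 0.957 (quasi-likelihood test of edgeR, adjusted after Benjamini and Hochberg). The exact two-sided permutation test over the libraries gave p between 0.3 and 0.8, where 3 mice against 3 cannot give less than 0.1.

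Hba-a1, an adult alpha globin gene, was at 16.7, 18.8 and 22.1 CPM in WT and at 18.9, 16.0 and 21.0 CPM in Zeb2 cKO. Its values in the 2 groups lay across each other, with the third replicate highest in both. The log2 fold change was -0.05 (SE 0.16), with a 95% interval of 0.750 to 1.25 for the fold itself. Hba-a2, the other alpha globin gene, was at 10.3, 11.3 and 13.3 CPM in WT and at 11.3, 9.15 and 12.3 CPM in Zeb2 cKO. The libraries fell in the same order as for Hba-a1. Its log2 fold change was -0.09 (SE 0.16), and the interval for the fold was 0.723 to 1.23. These 2 genes had the narrowest intervals of the 6.

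Hbb-bs, the adult beta globin gene with the most counts, was at 103, 185 and 180 CPM in WT and at 148, 92.3 and 130 CPM in Zeb2 cKO. The 2 highest libraries were WT, and WT replicate 1 lay below 2 of the 3 Zeb2 cKO libraries. The log2 fold change was -0.34 (SE 0.28), with an interval of 0.501 to 1.25 for the fold. It was the lowest value among the 6 genes, and it was between -0.56 without WT replicate 1 and -0.16 without Zeb2 cKO replicate 2. Hbb-bt, the second adult beta globin gene, was at 8.34, 15.6 and 17.8 CPM in WT and at 16.3, 10.5 and 17.5 CPM in Zeb2 cKO. WT replicate 1 was the lowest of all and WT replicate 3 the highest. The log2 fold change was 0.09 (SE 0.31), with an interval of 0.635 to 1.78 for the fold, and it became -0.17 without WT replicate 1.

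Alas2 was at 8.18, 7.38 and 10.1 CPM in WT and at 10.7, 7.05 and 9.98 CPM in Zeb2 cKO. Zeb2 cKO held both the lowest and the highest library. The log2 fold change was 0.12 (SE 0.20), and the interval for the fold was 0.781 to 1.50. Slc4a1 had few counts, with 9, 8 and 14 counts in WT and 11, 18 and 38 counts in Zeb2 cKO. In CPM these were 0.239, 0.182 and 0.365 for WT and 0.220, 0.415 and 0.707 for Zeb2 cKO, so that Zeb2 cKO replicate 1 lay below 2 WT libraries and Zeb2 cKO replicate 3 above all others. The log2 fold change of 0.78 (SE 0.50) was the highest of the 6 genes and had the widest interval, 0.751 to 3.93 for the fold. It fell to 0.27 without Zeb2 cKO replicate 3 and rose to 1.11 without Zeb2 cKO replicate 1.

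**Figure D2:**
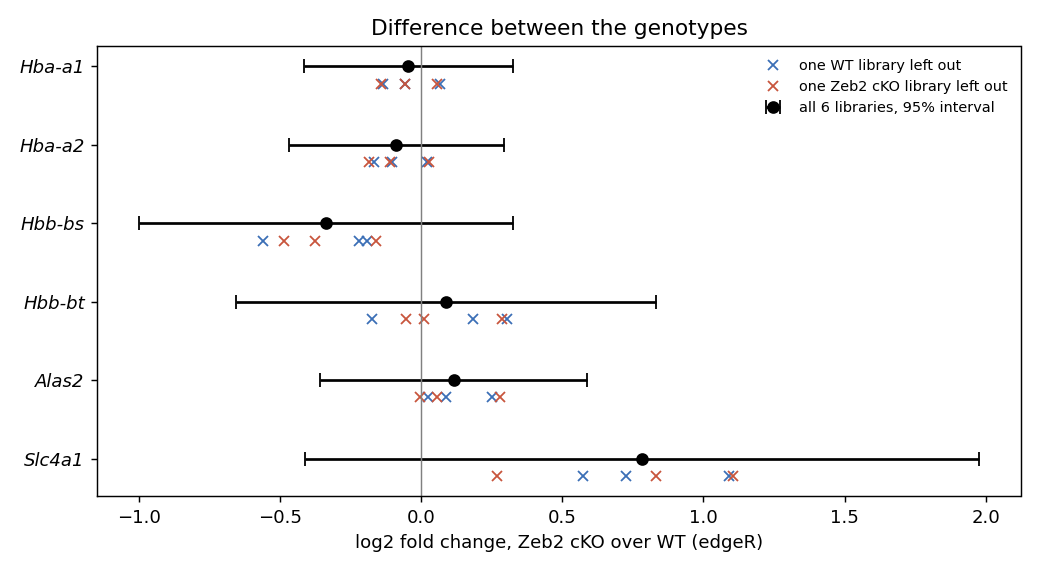
Log2 fold change of Zeb2 cKO over WT for each gene (horizontal axis, edgeR). Black points and bars are the value and 95% interval from all 6 libraries, and crosses are the values with 1 WT (blue) or 1 Zeb2 cKO (red) library left out. Every interval includes 0, and that of Slc4a1 is the widest.

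Levels of the genes were set against each other per kilobase of exon. On this scale (CPM per kb, mean over all 6 libraries) Hbb-bs was highest at 182, followed by Hba-a1 at 23.3, Hbb-bt at 20.4, Hba-a2 at 16.9, Alas2 at 3.70 and Slc4a1 at 0.0725. Hbb-bs exceeded every other gene of the 6 in every library, since its lowest value was 120 and the highest value of any other was 27.2. Hba-a1 (19.7 to 27.2), Hbb-bt (11.9 to 25.3) and Hba-a2 (13.7 to 19.9) overlapped in range and did not separate beyond the spread among libraries. Alas2 (2.93 to 4.46) and Slc4a1 (0.0373 to 0.145) each lay apart from their neighbours. The order among the 4 globin genes is subject to the shared windows described above. By mean CPM without regard to length, Hbb-bs ranked 313, Hba-a1 3507, Hbb-bt 4546, Hba-a2 5437, Alas2 6363 and Slc4a1 13983 among the 14746 genes tested.

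Ratios of counts within a library compare the genes with each other whatever their sum. Of the 15 ratios between 2 of the 6 genes, 2 had groups that did not overlap, beside the 6.36% of single genes tested. Both of them were ratios within a pair of copies, and they are given as a description because they were chosen after the values were seen. The ratio of Hbb-bs to Hbb-bt counts was 12.3, 11.8 and 10.1 in WT and 9.08, 8.78 and 7.42 in Zeb2 cKO (11.4 ± 1.17 and 8.43 ± 0.884, SD, n = 3 each). Every Zeb2 cKO library was below every WT library, and the exact two-sided permutation p was 0.1, the smallest possible here. Expressed as a share, Hbb-bt made up 7.50%, 7.79% and 9.01% of the beta globin counts in WT and 9.92%, 10.2% and 11.9% in Zeb2 cKO. The exact 95% binomial intervals of the nearest libraries of the 2 groups, 8.37% to 9.67% for WT replicate 3 and 9.28% to 10.6% for Zeb2 cKO replicate 1, overlapped. The ratio of Hba-a1 to Hba-a2 was 1.63, 1.67 and 1.66 in WT and 1.67, 1.75 and 1.70 in Zeb2 cKO, and its groups were apart by less than the rounding of these values.

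The ratio of beta globin to alpha globin counts, which sums over the copies, had overlapping groups. It was 4.12, 6.65 and 5.59 in WT and 5.45, 4.09 and 4.43 in Zeb2 cKO, with an exact permutation p of 0.4. The alpha copies had fewer windows to themselves (15.4% and 19.0%) than the beta copies (35.7% and 43.4%). Removal of reads matching both copies could thus raise this ratio. The libraries poorest in globin counts, WT replicate 1 and Zeb2 cKO replicate 2, had the lowest 2 ratios, 4.12 and 4.09. The ratio of the 4 globin genes to Alas2 was 16.9, 31.2 and 23.2 in WT and 18.2, 18.1 and 18.1 in Zeb2 cKO. The 3 Zeb2 cKO values were nearly equal and lay between the WT values. Removal of reads matching both copies could lower the ratio to Alas2, which had 87.9% of its windows to itself.

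**Figure D3:**
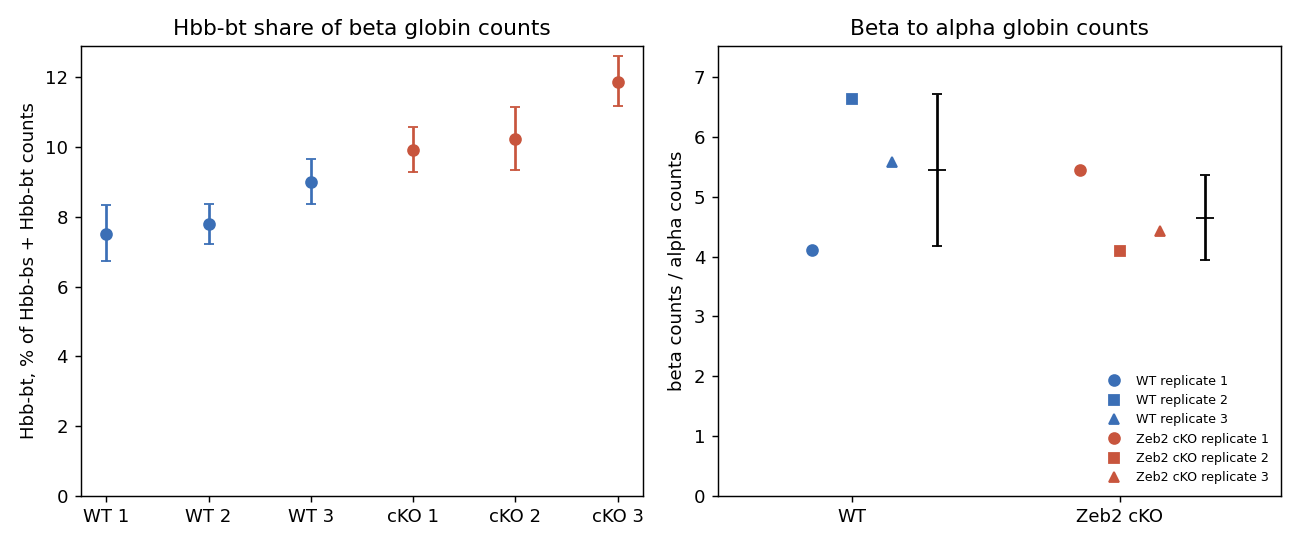
Left, Hbb-bt as a percent of Hbb-bs and Hbb-bt counts in each library, with exact 95% binomial intervals that cover counting error only. Right, beta globin counts divided by alpha globin counts in each library, with the mean ± SD at the right of each group. The left panel shows 7.50% to 9.01% in WT and 9.92% to 11.9% in Zeb2 cKO, and the right panel shows overlapping groups.

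Across the 6 libraries the copies of alpha globin moved together, and other pairs did so less closely. Hba-a1 and Hba-a2 had a Pearson r of 0.984 (exact permutation p = 0.0208, adjusted over 15 pairs, from 0.00139 unadjusted) and a Spearman rho of 1.0 (adjusted exact permutation p = 0.0417, from 0.00278), on log2 CPM over 6 libraries. Without the 2 libraries farthest from the median, r was 1.00. These copies share most of their sequence, so their counts are not independent measurements. Hbb-bs and Hbb-bt had r = 0.80 and rho = 0.54 (adjusted exact permutation p = 0.205 and 0.446, from 0.0819 and 0.297), and r was -0.34 without the 2 farthest libraries. None of the other 13 pairs passed the adjustment, either by r or by rho.

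The 5 genes whose log2 CPM followed the mean of the 4 adult globin genes most closely over the 6 libraries were not on any red cell list examined here. Pcgf6, a Polycomb subunit, had r = 0.996 (1.65 to 2.60 CPM), the processed pseudogene Gm16373 had r = 0.996 (0.138 to 0.365 CPM) and Ube2d3, a ubiquitin-conjugating enzyme, had r = 0.994 (95.2 to 115 CPM). Osbpl9, an oxysterol-binding protein, and the protease Zmpste24 followed at r = 0.991 each. With 6 libraries 106 of 14740 genes had an r over 0.9, and the 5 were picked as the highest of them.

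Other genes of the red cell programme were examined to see which of them the tissue contained. Of the 6 embryonic and theta globin genes, Hba-x, Hbb-y, Hbb-bh1, Hbb-bh2 and Hbq1a had 0 counts in every library, which allows up to 0.0558 to 0.0796 CPM (3 counts) depending on the library, and Hbq1b had at most 3 counts. Of the transcription factors that act in red cell precursors, Gata1 had 1 count in all 6 libraries together, Klf1 had 2, both in WT replicate 3, and Gfi1b had 0. Others were present, among them Tal1 with 128 to 207 counts (2.92 to 4.31 CPM) and Bcl11a with 69 to 132 counts (1.83 to 2.64 CPM), both with overlapping groups. Of the 13 genes listed as erythroid regulators, 8 passed the filter on low counts and none passed the test, with a median log2 fold change of 0.10 against -0.0069 over all genes (0.017 without WT replicate 2). The 4 most abundant of them were Tfrc, the transferrin receptor (90.9 to 167 CPM), the LIM domain partners Ldb1 (14.8 to 18.0 CPM) and Lmo2 (9.47 to 14.1 CPM), and the Gata cofactor Zfpm1 (3.65 to 7.99 CPM), all of which other tissues also use. None of the 4 had groups apart. Of the 8 tested, 1 did: Epor, the erythropoietin receptor, with 16 to 19 counts in WT and 28 to 35 in Zeb2 cKO (log2 fold change 0.54).

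Genes of the red cell membrane and skeleton fell into those that heart muscle also expresses and those near 0. The 4 most abundant were the filament-capping Tmod1 (67.1 to 114 CPM), the ankyrin Ank1 (60.2 to 107 CPM), the spectrin Sptb (33.5 to 94.5 CPM) and protein 4.1, Epb41 (31.6 to 53.8 CPM). All 4 were lowest in WT replicate 2, the library with the lowest cardiomyocyte marker sum, and not in the libraries poorest in globin. In contrast, Rhag, which encodes the Rh-associated glycoprotein, and Kel, the Kell blood group antigen, had at most 1 count in any library. Of the 18 genes 11 were tested, 0 passed an adjusted p of 0.05, and 1, Add2, passed an unadjusted p of 0.05 (log2 fold change -1.15, 3 to 16 counts; 0.861% of all genes did so in the lower direction). Their median log2 fold change was 0.18, and -0.0088 without WT replicate 2. The groups did not overlap for 2 of the tested genes that were lower in Zeb2 cKO (Add2 and Dmtn) and 1 that was higher (Gypc). Of all genes 2.97% and 3.39% were apart in these directions. The 12 tested of 16 red cell enzyme and maturation genes found by symbol, among them Cat (75.3 to 95.4 CPM), Prdx2 (72.9 to 96.2 CPM), Slc25a39 (23.4 to 37.2 CPM) and Gpx1 (24.9 to 53.6 CPM), likewise gave 0 calls, with a median of 0.076 (0.042 without WT replicate 2). Cat was the 1 tested gene of this list with groups apart, at 75.3 to 92.6 CPM in WT and 94.0 to 95.4 CPM in Zeb2 cKO. Car1, the erythroid carbonic anhydrase, was at 0 counts in every library.

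**Figure D4:**
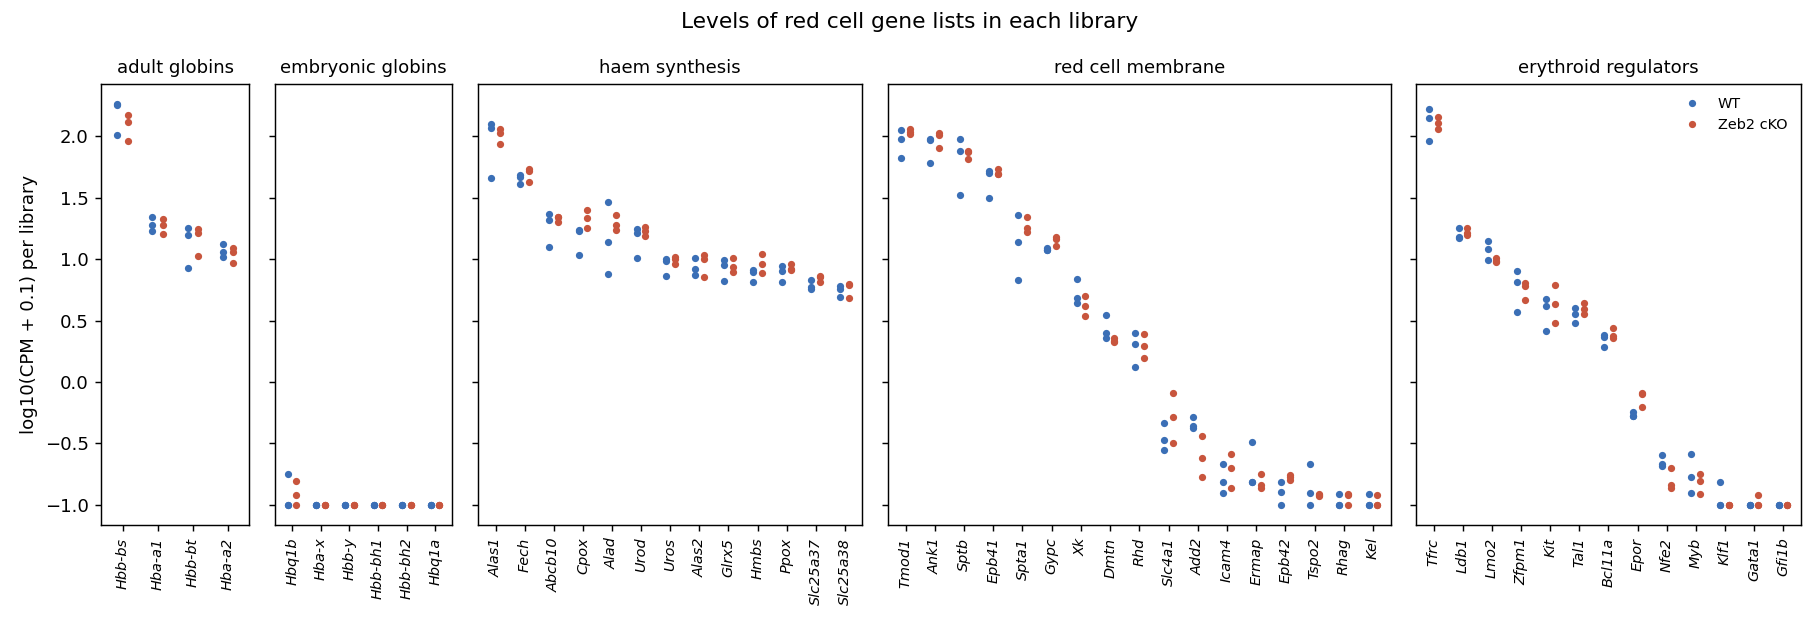
Level of genes of 5 red cell gene lists in each library, as log10(CPM + 0.1), with genes ordered by mean count within a list, WT in blue and Zeb2 cKO in red. A gene with 0 counts lies at -1. Adult globins are well above the embryonic globins, and the membrane genes run from Tmod1 at over 67 CPM to Rhag and Kel at no more than 1 count.

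Haem synthesis genes were expressed in all 6 libraries, and the cells their transcripts came from were not tested. Alas1, the housekeeping form of the enzyme encoded by Alas2, was at 7.40 to 20.4 CPM per kb, against 2.93 to 4.46 for Alas2 on the same scale. The lowest Alas1 level was in WT replicate 2, where Alas2 was not lowest. Of the 13 genes of the pathway all were tested, 0 passed an adjusted p of 0.05 and 1 passed an unadjusted p of 0.05, against 1.04% of all genes in the higher direction. This was Cpox, coproporphyrinogen oxidase, at 10.7 to 17.3 CPM in WT and 17.8 to 24.9 CPM in Zeb2 cKO (log2 fold change 0.52, and 0.34 without WT replicate 2, adjusted p = 0.957 by edgeR's quasi-likelihood test). All 13 log2 fold changes were above 0, with a median of 0.14 that became 0.011 without WT replicate 2. Fech, which inserts iron into haem, was at 41.1 to 53.7 CPM and the transporter Abcb10 at 12.5 to 23.2 CPM, both with overlapping groups.

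Genes that take up and degrade haemoglobin, haem and iron from dying red cells did not separate the genotypes either. Of 12 genes 11 were tested, 0 passed an adjusted or unadjusted p of 0.05 in edgeR, and the median log2 fold change was -0.062 (-0.0043 without WT replicate 2). The 4 most abundant were Lrp1, a receptor for haem bound to haemopexin (215 to 672 CPM), the ferritin chains Fth1 (110 to 138 CPM) and Ftl1 (16.7 to 52.0 CPM), and the haem transporter Slc48a1 (20.2 to 26.1 CPM). The highest value of each of these 4 was in WT replicate 2, the library with the highest macrophage and fibroblast marker sums. The part of those cells in it was not tested. Hmox1 and Slc40a1 were also highest there. Cd163 (1.62 CPM against 5.83 to 8.34 CPM elsewhere) and Hmox2 (19.1 CPM against 20.8 to 24.7 CPM) were lowest there.

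Markers of the other cells of blood were low and did not pass the test. Of 17 platelet genes 7 were tested, and their summed level was 10.3 to 18.3 CPM in WT and 13.6 to 15.9 CPM in Zeb2 cKO. The chemokine Pf4 (3.13 to 5.81 CPM), the receptor P2ry12 (1.51 to 4.90 CPM), the integrin Itgb3 (1.70 to 2.85 CPM) and the lipoxygenase Alox12 (0.980 to 2.74 CPM) led this list. Alox12 had groups that did not overlap and an unadjusted p under 0.05 (log2 fold change 0.76), where 3.39% of all genes were apart and 1.04% had such a p in the higher direction, and no other tested gene of the list did. Neutrophil markers summed to 2.33 to 6.63 CPM and lymphocyte markers to 1.54 to 6.13 CPM, each highest in WT replicate 2. The platelet sum was also highest in WT replicate 2 and lowest in WT replicate 1, the WT library poorest in globin. Among the Zeb2 cKO libraries it was lowest in replicate 3 (13.6 CPM), and replicate 2, the poorest in globin, had 15.3 CPM.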

How the data were processed

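The authors depleted ribosomal RNA, made strand-specific libraries, sequenced single-end reads of 75 bases, aligned and counted them on Gencode M4 (GRCm38) with the STAR workflow, and deposited raw counts per gene. The STAR version is not given in the sources used here. The labels call the control group WT. From the counts, symbols, coordinates and transcripts were taken by identifier from Gencode M21 (GRCm38). TMM normalization was run in edgeR 4.0.16 under R 4.3.3, genes were kept by filterByExpr, and genotype was tested with glmQLFit and glmQLFTest on the whole table, with Benjamini-Hochberg adjustment over 14746 genes. The prior count was 0.125 for fold changes and 2 for log2 CPM. The code was tested on simulated data. Single values were compared with exact two-sided permutation tests. The labels name separate animals only by number, so p-values measure the spread between these samples. Genes named were the 6 genes, Zeb2, the 5 most alike in level to the globins, and the 4 most abundant tested genes of each list, with any that passed the test, and not all are printed; 1 gene of the lists is counted with the others and is not reported here. Genes named below the filter on low counts, for an unadjusted p or for groups apart were chosen after their values were seen. So were Tal1, Bcl11a, Mb, Cd163, Hmox1, Hmox2 and Slc40a1. Fibroblast, macrophage, cardiomyocyte, endothelial, neutrophil and lymphocyte lists are given by their sums; the 12 endothelial markers summed to 592 CPM in WT replicate 2 and 701 to 845 CPM elsewhere. The 6 genes and the lists were chosen with earlier results of these data known. Intervals cover counting error only where so stated. Alternatives covered normalization, filter, test, dispersion, mitochondrially encoded genes, replicate number, a globin covariate and each library left out.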

Additional observations from a re-analysis of the deposited data

How the results depend on the processing

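The 6 genes were fitted under 12 alternatives, and 65 of 72 values kept their direction, none passing an adjusted p of 0.05 (smallest 0.596). The other 7 changed sign when 1 library was left out. With each library left out in turn, the log2 fold change ranged from -0.14 to 0.066 for Hba-a1, -0.18 to 0.028 for Hba-a2, -0.56 to -0.16 for Hbb-bs, -0.17 to 0.30 for Hbb-bt, -0.0026 to 0.28 for Alas2 and 0.27 to 1.11 for Slc4a1. The sign turned for Hba-a1 without WT replicate 3 (0.066) or Zeb2 cKO replicate 2 (0.056), for Hba-a2 without the same libraries (0.020 and 0.028), for Hbb-bt without WT replicate 1 (-0.17) or Zeb2 cKO replicate 3 (-0.053), and for Alas2 without Zeb2 cKO replicate 1 (-0.0026). DESeq2 1.42.0 called 1 gene higher and 0 lower, against 0 in edgeR. That gene, Slc46a2, is no red cell gene. Genes at an unadjusted p under 0.05 numbered 127 lower and 153 higher, 326 and 274 without the filter on low counts, and 263 and 166 in DESeq2. With the mean globin level as a covariate 0 genes were called, and 69 were lower and 124 higher at an unadjusted p under 0.05. Leaving out a library gave 47 to 827 lower (most without WT replicate 1) and 75 to 307 higher. The log2 ratio of the mean globin shares, -0.27, was -0.50 without WT replicate 1 and -0.093 without WT replicate 2, and -0.25 over all counts. Same-numbered samples correlated at 0.088, -0.14 and -0.087 in their deviations from the group means, and differently numbered ones at -0.26 to 0.24. With group means of 3 mice these values cannot decide whether the numbers pair the mice. The fit with the replicate number as a block called 0 genes in either direction, as did the main fit. List medians without WT replicate 2 were added after seeing the data. Depth limits Slc4a1 and all genes of a few counts.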
